A study of Mus musculus with 4 samples.

Results

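The nuclear genes for the mitochondrial respiratory chain were examined in early T lineage progenitors (ETP), the most immature T cell progenitors of the thymus, from young and old mice. Genes were chosen by symbol. Complex I was taken as the genes named Nduf with a subunit letter and a number, complex II as Sdha to Sdhd, complex III as those that begin with Uqcr, complex IV as Cox4 to Cox8 and complex V as Atp5. The rule found 84 of the 23361 genes in the table, with 37, 4, 8, 18 and 17 genes in complexes I to V. The sort took thymocytes that were Lin-, CD44+, CD25- and CD117+, from female C57BL6 mice, and no treatment or altered allele was given for either age. The 2 young libraries came from mice of 4 to 6 weeks and the 2 old libraries from mice of 72 weeks. The labels do not say if each library is from its own animal or from a pool of animals, so every p-value here is set by library-to-library spread, which may be technical.

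The respiratory chain sits in the inner mitochondrial membrane. Complex I takes electrons from NADH and complex II takes them from succinate, and both pass them to ubiquinone. Complex III hands them on to cytochrome c and complex IV to oxygen. Complexes I, III and IV pump protons, and complex V, the ATP synthase, lets them flow back to make ATP. Most subunits are encoded in the nucleus, while a small set, among them the core membrane subunits of complexes I, III and IV, is encoded in mitochondrial DNA and was not analysed here. The symbols do not follow function in every case. Ndufa4 is now counted as a subunit of complex IV, Cox7a2l acts in joining complexes III and IV, and Atp5s and Atp5sl (now Dmac2l and Dmac2) are not regular subunits of the ATP synthase.

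Replicates 1 and 2 held 16658865 and 6414917 assigned fragments for young ETP, and 11816480 and 4839341 for old. Levels are CPM, fragments per 1000000 after TMM normalization. A gene with 0 fragments could still have 3, which is 0.176 to 0.654 CPM by library and covers counting error only. Kit, which encodes CD117, was at 764 and 1096 in young and 936 and 945 in old libraries, Cd44 at 496 and 517 in young and 636 and 519 in old libraries and Il2ra, which encodes CD25, at 26.3 and 39.9 in young and 31.8 and 22.9 in old libraries, each in CPM. Genes of other cells that a thymocyte gate could hold differed with age. Of 9 dendritic cell markers 8 were tested, DESeq2 called 7 of them higher in old ETP, and their summed level was 561 and 873 in young and 3425 and 11182 in old libraries (CPM). Most of the old sums came from Cd74, at 229 and 522 in young and 2845 and 9057 in old libraries. Flt3, the tested marker not called, was at 279 and 243 in young and 239 and 358 in old libraries. Of 8 markers of NK and innate lymphoid cells 5 were tested, DESeq2 called 3 higher, and their sum was 241 and 243 in young and 360.1 and 338 in old libraries. Nkg7 weighed heavily in that sum, at 220 and 214 in young and 231 and 158 in old libraries. Its log2 fold change of old against young was -0.16, while 4 of the 5 tested were above 0 and their median was 2.94 over all 5. The edgeR test called 0 of these markers. Of all 17 markers, Tbx21 was the only one at 0 in both young libraries. Their part in any difference between ages given here was not tested. In bulk RNA, a change in the share of a cell type and a change in RNA per cell cannot be told apart.

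No respiratory chain gene was called between ages. Of the 84 genes 79 passed the filter on low values (36, 4, 8, 14 and 17 in complexes I to V), and edgeR's quasi-likelihood test called 0 of them at an adjusted p of 0.05, with 0 at an unadjusted p below 0.05. Among all 10080 genes tested it also called 0 (0% in each direction), with 4.65% higher and 0.913% lower in old ETP at an unadjusted p below 0.05. DESeq2 called 0 of the 79 as well, against 2.08% of all genes higher and 0.149% lower. The smallest unadjusted p of the 79 was 0.0725, for Cox4i2, and edgeR's smallest adjusted p was 0.999. These tests do not show that levels were equal, since for most genes the standard error of the log2 fold change was at least as large as the change itself.

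The estimates, all below any threshold, leaned to higher values in old ETP. The log2 fold change of old against young was above 0 for 57 of 79 genes (72.2%), against 46.6% of all genes tested, with a median of 0.11 against -0.033. By complex, 27 of 36, 3 of 4, 5 of 8, 12 of 14 and 10 of 17 genes of complexes I to V were above 0, with median log2 fold changes of 0.12, 0.11, 0.13, 0.16 and 0.054. The lean depended on single libraries. Without young replicate 2 only 28 of the 79 genes were above 0 and without old replicate 1 only 36, while without young replicate 1 it was 65 and without old replicate 2 it was 61. The FPKM used for a further fit were not rescaled between libraries. By replicate number, their sum was lower in old ETP, 230420 against 281542 for replicate 1 and 122998 against 135313 for replicate 2. On log2(FPKM + 1) the median of all genes moved to -0.27, and 16 of the 79 genes were above 0. That count was taken before the move of all genes was removed, so it is not comparable with the 57 above. The medians of complexes I to V on the log2(FPKM + 1) scale were -0.17, -0.18, -0.22, -0.14 and -0.25, each above that of all genes. With the move of all genes taken out they were 0.070, 0.062, 0.018, 0.096 and -0.013. Both old libraries lay above both young ones for 8 genes (10.1%, against 16.1% of all genes) and below them for 4 (5.06%, against 15.5%), both below the shares of the table as a whole. The 8 were Ndufa13, Ndufb6, Uqcrq, Cox6a1, Cox7c, Atp5g1, Atp5h and Atp5k, and the 4 were Ndufa10, Cox4i2, Cox6b2 and Atp5b.

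**Figure D1:**
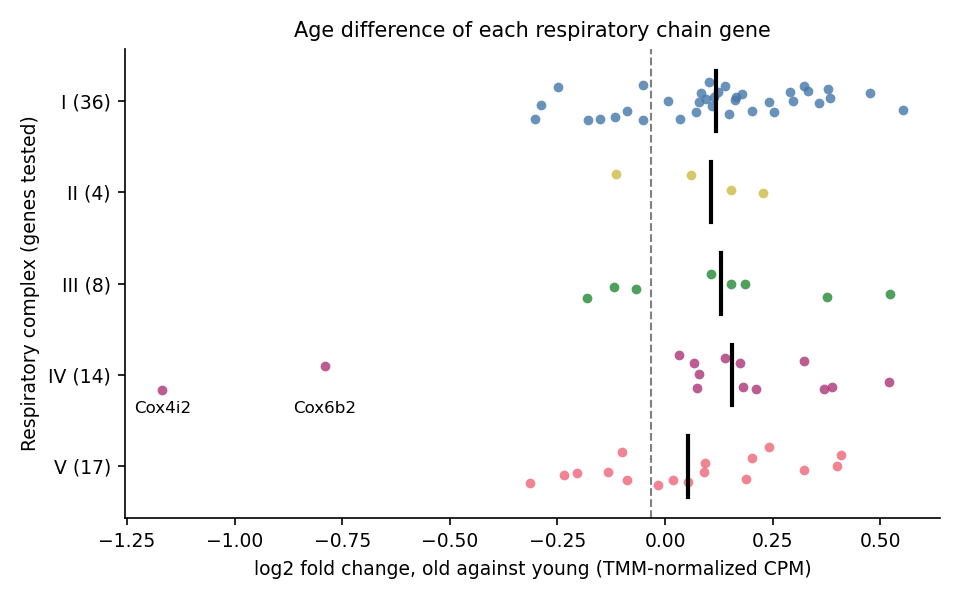
Age difference of each of the 79 tested genes by complex (x axis, log2 fold change of old against young from TMM-normalized CPM; black bars, complex medians; dashed line, median of all 10080 genes). Most points lie between -0.31 and 0.55, and Cox4i2 at -1.17 and Cox6b2 at -0.79 stand to the left of the rest.

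Promoters were read as the 250 bases before each gene's start (RefSeq, GRCm38.p6), of which 75 windows of 69 of the 84 genes were found among 32851. The letters of the factor NRF1, known for driving respiratory genes, were searched as GCGCA, any base, then GCGC, and were in 14 of them (18.7%, on either strand), against 3.74% of all windows. The letters CCGGAAGT of GABPA were in 3 (4% against 2.88%) and AAGATGGC of YY1 in 2 (2.67% against 1.56%). The 13 tested genes with the NRF1 letters had a median log2 fold change of 0.19, with 11 above 0, and the 53 without them 0.095, with 38 above 0, and this difference was not tested. The windows below are examples with and without matches, and do not show that difference. Of those with NRF1 letters, Sdha had a log2 fold change of -0.12 and Atp5h 0.40. Of those without, Ndufa13 had 0.48 and Cox6b2 -0.79. Each window runs 5′ to 3′ on the gene's strand, with matches to either strand of a motif in capitals. Sdha (chr13:74350241-74350490, minus strand) holds the NRF1 letters 3 times and Atp5h (chr11:115419920-115420169, minus) holds them once with GABPA letters nearer the start. Ndufa13 (chr8:69902021-69902270, minus) and Cox6b2 (chr7:4753095-4753344, minus), which lay on opposite sides by age, hold none of the 3 motifs. No match says only that these letters are not in this window.
Sdha: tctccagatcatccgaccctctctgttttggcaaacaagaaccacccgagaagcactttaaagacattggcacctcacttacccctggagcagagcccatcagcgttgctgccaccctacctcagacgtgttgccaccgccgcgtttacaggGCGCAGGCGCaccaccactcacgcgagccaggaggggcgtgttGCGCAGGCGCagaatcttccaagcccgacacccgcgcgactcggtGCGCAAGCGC
Atp5h: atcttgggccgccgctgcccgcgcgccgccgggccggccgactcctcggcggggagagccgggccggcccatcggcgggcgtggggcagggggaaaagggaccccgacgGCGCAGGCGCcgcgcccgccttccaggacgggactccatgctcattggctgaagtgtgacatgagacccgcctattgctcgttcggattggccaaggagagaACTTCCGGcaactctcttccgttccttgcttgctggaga
Ndufa13: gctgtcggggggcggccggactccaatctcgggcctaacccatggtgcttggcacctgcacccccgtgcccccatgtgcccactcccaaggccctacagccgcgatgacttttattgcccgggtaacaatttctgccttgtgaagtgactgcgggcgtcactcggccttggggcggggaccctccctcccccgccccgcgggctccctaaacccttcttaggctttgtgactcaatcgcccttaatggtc
Cox6b2: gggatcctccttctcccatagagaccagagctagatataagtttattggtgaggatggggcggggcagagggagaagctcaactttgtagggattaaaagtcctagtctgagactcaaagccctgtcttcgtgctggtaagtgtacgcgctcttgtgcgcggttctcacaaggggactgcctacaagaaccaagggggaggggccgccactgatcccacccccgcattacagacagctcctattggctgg

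Complex I is built from core subunits, which carry the flavin and iron-sulfur clusters, and from accessory subunits around them. The nuclear core genes had estimates above 0 in 3 of 7 cases (median -0.051) and the accessory genes in 24 of 28 (median 0.16). Ndufs1, the largest core subunit, was at 126 and 99.3 in young and 105 and 84.1 in old libraries (CPM), a log2 fold change of -0.25 ± 0.28, where ± gives the SE as in all log2 fold changes of old against young that follow. Replicate 2 was the lower library at each age, and the ages overlapped. Ndufv1, which binds NADH and the flavin, was at 70.5 and 27.9 in young and 66.1 and 37.5 in old libraries (0.073 ± 0.52), and its partner Ndufv2 was at 42.4 and 36.5 in young and 37.7 and 26.8 in old libraries (-0.29 ± 0.32). Among other core genes, Ndufs3, Ndufs7 and Ndufs8 had log2 fold changes of 0.0066, -0.051 and 0.11, and the ages overlapped for each. Among accessory genes, Ndufa13 was at 30.8 and 24.8 in young and 42.2 and 35.3 in old libraries, with both old libraries above both young ones and a log2 fold change of 0.48 ± 0.31 (edgeR, adjusted p = 0.999). Its promoter window is among those shown with no motif match. It encodes GRIM-19, a subunit also known for binding STAT3. Ndufb6 was at 15.7 and 16.02 in young and 22.4 and 18.7 in old libraries (0.38 ± 0.33), again without overlap. Ndufa10 went the other way, at 98.5 and 90.8 in young and 81.97 and 71.5 in old libraries (-0.30 ± 0.25). By level per transcript length, the highest of the Nduf genes were Ndufa4 at 514, Ndufb11 at 232 and Ndufb9 at 231 FPKM, rescaled so that each library sums to 1000000 and averaged over the 4 libraries. The median of complex I was 129 on this scale. Ndufs5, singled out here after its values were seen, was at 9.07 and 0 in young and 7.65 and 6.32 in old libraries (CPM). It is 1 of 4 genes here whose fragment estimates were not all whole, and in young replicate 2 it can be given only as listed at 0. Its log2 fold change of 0.55 ± 1.37, the highest of the 79 genes, rests on that library and was -0.37 without it.

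Complex II, succinate dehydrogenase, is the only complex with no subunit from mitochondrial DNA, and it is shared with the citric acid cycle. All of its genes overlapped between ages. Sdha, the flavoprotein that oxidizes succinate, whose promoter window holds the NRF1 letters 3 times, was at 288 and 298 in young and 251 and 290.4 in old libraries (CPM), a log2 fold change of -0.12 ± 0.25, and by ratio varied least between libraries among the genes of this complex. Sdhb, the iron-sulfur subunit that pairs with it, was at 73.3 and 37.00 in young and 77.2 and 52.1 in old libraries (0.23 ± 0.41), and the libraries of an age differed by more than the ages did. The membrane anchors Sdhc and Sdhd were at 74.7 and 56.1 in young and 80.1 and 65.4 in old libraries (0.15 ± 0.28) and at 119 and 92.7 in young and 113 and 108 in old libraries (0.061 ± 0.26). Summed over the complex, the level was 555 and 484 in young and 521 and 515 in old libraries. Per length the order was Sdha at 198, Sdhd at 186, Sdhc at 131 and Sdhb at 127 rescaled FPKM on average. Sdha and Sdhd overlapped between libraries, as did Sdhc and Sdhb, while Sdhd lay above Sdhc in every library.

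In complex III the 3 core and iron-sulfur genes, Uqcrc1, Uqcrc2 and Uqcrfs1, all had estimates below 0 (median -0.12), and the 5 small subunits all had estimates above 0 (median 0.19). Uqcrc2, a core subunit, was at 207 and 182 in young and 191 and 151 in old libraries (-0.18 ± 0.27). Uqcrq, a small subunit beside cytochrome b, was at 21.8 and 17.6 in young and 33.4 and 23.1 in old libraries (0.52 ± 0.35), the only gene of this complex with both old libraries above both young ones. Uqcr11 was at 25.1 and 17.5 in young and 32.01 and 23.3 in old libraries (0.38 ± 0.36) and Uqcr10 at 62.6 and 27.4 in young and 63.3 and 33.6 in old libraries (0.11 ± 0.51), and replicate 1 was the higher library of both ages in each. Uqcrh, the hinge protein that meets cytochrome c1, had the highest level per length, 576 rescaled FPKM, and 113 and 79.4 in young and 117 and 102 in old libraries in CPM (0.19 ± 0.29). Uqcrb, chosen after its values were seen, ran opposite to most other genes across libraries, at 10.1 and 26.3 in young and 9.06 and 31.6 in old libraries, with replicate 2 the higher at both ages. It lies at chr13:66900576-66905350 (GRCm38.p6) and is one of 7 genes here with a near-identical transcript elsewhere in the annotation, so its fragments may be split among copies. Its log2 fold change of 0.15 ± 0.74 ran from -1.004 without old replicate 2 to 0.99 without young replicate 2.

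Complex IV, cytochrome c oxidase, has general subunits made in most tissues and isoforms with restricted expression. All 10 general genes had estimates above 0 (median 0.20). Cox4i1, the main form of the subunit that regulates the enzyme, was at 181 and 142 in young and 229.8 and 175 in old libraries (0.32 ± 0.29), and old replicate 2 lay below young replicate 1. Cox5b was at 57.5 and 32.8 in young and 74.5 and 55.3 in old libraries (0.52 ± 0.37). Cox6a1 was at 86.1 and 56.5 in young and 95.9 and 91.1 in old libraries (0.39 ± 0.30) and Cox7c at 84.2 and 64.1 in young and 101 and 90.2 in old libraries (0.37 ± 0.27), both without overlap between ages. Per length the highest of the genes named Cox were Cox4i1 at 724, Cox7c at 678 and Cox6a1 at 480.4 rescaled FPKM.

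The restricted isoforms of complex IV were scarce. Of the 7, the filter was passed by Cox4i2, Cox6a2 and Cox6b2, while Cox7a1, Cox7b2, Cox8b and Cox8c did not pass. Cox7b2 and Cox8c had no fragment in any library, which allows up to 3 fragments in each. With Ndufa4l2, a paralog of Ndufa4, these 4 isoforms were the 5 genes not tested, and none of the 5 had more than 5 fragments in a library. Cox4i2, a form best known from lung, was at 12.1 and 8.01 in young and 5.90 and 2.83 in old libraries (CPM), with both old libraries below both young ones. Its log2 fold change of -1.17 ± 0.53 was the largest in size of all 79 genes and did not pass edgeR (adjusted p = 0.999), and with single libraries left out it ran from -1.80 to -0.81. As a share of Cox4i1 and Cox4i2 together, by rescaled FPKM, it made up 5.65 and 4.86 in young and 2.27 and 1.45 in old libraries (in percent). Cox6b2, best known from testis, was at 5.44 and 6.25 in young and 3.99 and 2.61 in old libraries (-0.79 ± 0.48), again without overlap, and made up 9.67 and 10.8 in young and 6.17 and 4.95 in old libraries of Cox6b1 and Cox6b2 (in percent). These values rest on few fragments. Cox4i2 had 206 and 50 in young and 71 and 13 in old libraries, and Cox6b2 had 93 and 39 in young and 48 and 12 in old libraries. Cox6b1, the general form, was at 50.1 and 47.4 in young and 54.2 and 47.9 in old libraries (0.068 ± 0.26). Cox6a2, the heart and muscle form, was at 3.39 and 5.13 in young and 4.90 and 3.92 in old libraries (0.078 ± 0.49) and made up 2.67 and 6.15 in young and 3.48 and 3.03 in old libraries of its pair (in percent), with the ages overlapping. Cox4i2 lies at chr2:152753916-152765039 and Cox6b2 at chr7:4751792-4753094 (GRCm38.p6).

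Complex V joins a catalytic F1 head to a ring of c subunits in the membrane. Atp5b, the catalytic beta subunit, had the highest level of all 84 genes, 2647 rescaled FPKM. In CPM it was at 2689 and 2450.2 in young and 2203 and 2167 in old libraries, with both old libraries below both young ones and a log2 fold change of -0.23 ± 0.31 that did not pass edgeR (adjusted p = 0.999). Atp5a1, the alpha subunit that alternates with it, was at 937 and 521 in young and 792 and 538 in old libraries (-0.13 ± 0.40), with the 2 young libraries further apart than the means of the ages. Atp5e, the small epsilon subunit of the stalk, was at 78.7 and 35.2 in young and 93.9 and 57.7 in old libraries (0.41 ± 0.47), with the ages overlapping. Atp5c1 and Atp5d, the gamma and delta subunits, had log2 fold changes of 0.017 and 0.20. The c subunit is made from 3 genes that differ in their import sequence. Atp5g1 was at 84.7 and 84.6 in young and 92.2 and 88.01 in old libraries (0.091 ± 0.24), all old values above all young ones by a small step. Atp5g2 was at 72.9 and 56.4 in young and 91.4 and 55.6 in old libraries (0.19 ± 0.34) and Atp5g3 at 244 and 122 in young and 222 and 139 in old libraries (-0.017 ± 0.43). Atp5g3 supplied the largest share of the c transcripts, 62.7 and 48.7 in young and 56.5 and 51.6 in old libraries (percent of the 3 genes by rescaled FPKM), while Atp5g1 supplied 17.1 and 27.1 in young and 18.5 and 26.2 in old libraries (in percent). The libraries of an age were further apart in these shares than the ages were. Atp5h, of the peripheral stalk, was at 99.8 and 75.8 in young and 127 and 105 in old libraries (0.40 ± 0.28) and Atp5k, the e subunit, at 11.5 and 10.1 in young and 14.1 and 12.9 in old libraries (0.32 ± 0.35), both without overlap. Both also have near-identical copies elsewhere.

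**Figure D2:**
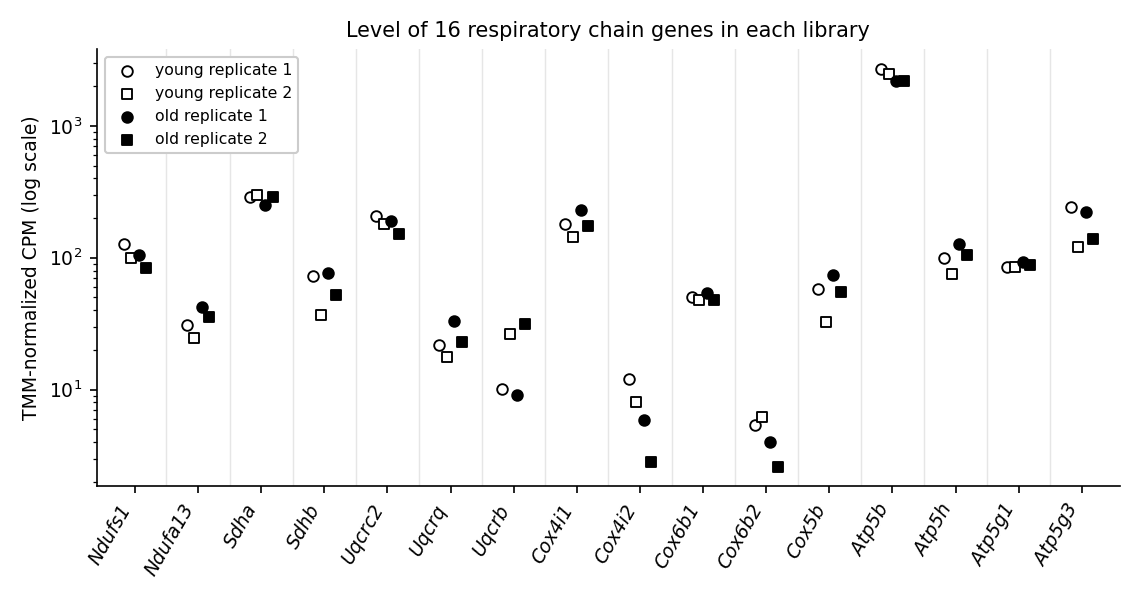
Level of 16 of the genes in each library (y axis, TMM-normalized CPM on a log scale; open symbols, young; filled symbols, old; circles, replicate 1; squares, replicate 2). Squares lie below circles of the same age for most genes, with Uqcrb and Sdha reversed at both ages and Cox6b2 in young. Only Cox4i2 and Cox6b2 show age gaps of a log2 fold change beyond 0.7 in size.

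The libraries of an age differed from each other in the same direction. Replicate 2 was below replicate 1 for 69 of the 79 genes in young ETP and 68 in old ETP, against 46.8% and 51.2% of all genes. The median log2 difference was -0.46 in young and -0.34 in old, against 0.045 and -0.021 over all genes. By complex it ran from -0.48 in complex I to -0.37 in complex V in young ETP, and from -0.45 in complex III to -0.18 in complex II in old ETP. Replicate 2 was also the shallower library at each age. Across the 78 genes with a value at both ages, the young and old differences had a Spearman rho of 0.67, which describes these 4 libraries only, and all genes together gave 0.70. Genes for ribosomal proteins, also short and abundant, had within-age medians of -0.75 and -0.82, so the direction was not particular to the respiratory chain. The summed level of the 84 genes was 9258 and 7103 in young and 8746 and 7227 in old libraries (CPM), with means of 8181 ± 1524 in young and 7987 ± 1074 in old ETP (SD, n = 2 each).

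**Figure D3:**
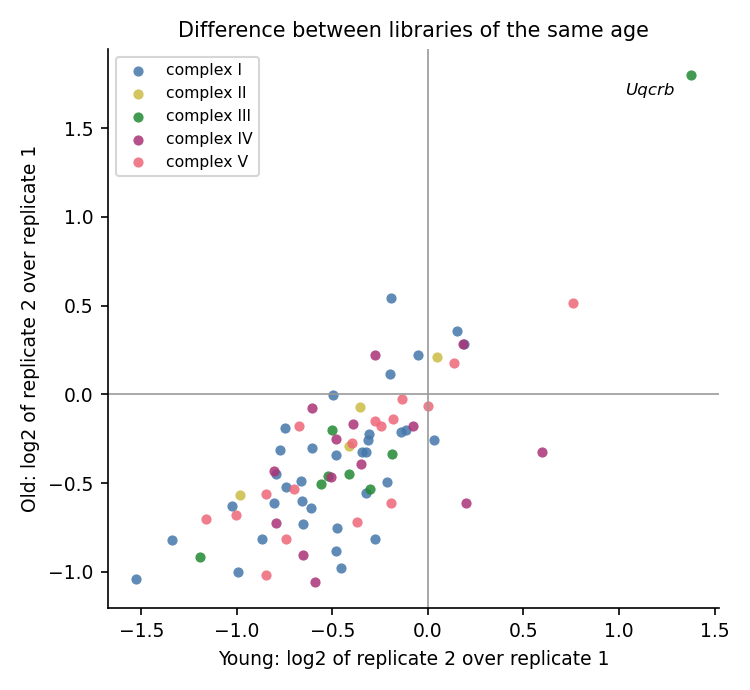
Difference between libraries of the same age for each tested gene (x axis, log2 of replicate 2 over replicate 1 in young; y axis, the same in old; colour, complex). Most points lie in the lower left, where replicate 2 was the lower library at both ages, and Uqcrb lies far to the upper right.

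The age difference was related to transcript length. Length was taken from the ratio of fragments to FPKM and set to 1 at the median of all tested genes. Across the 79 genes its Spearman rho with the log2 fold change was -0.57, against -0.093 over all genes, and these points share libraries and normalization. Of the 39 genes shorter than their own median, 37 had estimates above 0 (median 0.21), against 20 of the 40 longer ones (median -0.0054). The same length limit divided the tested genes outside the respiratory chain into 293 shorter ones, of which 66.9% were above 0 (median 0.13), and 9696 longer ones, of which 45.8% were above 0 (median -0.039). Of the ribosomal protein genes 25 of 55 were above 0 (median -0.014), with 20 of the 29 shorter ones above 0 (median 0.048) and 5 of the 26 longer ones (median -0.091). The part of length in the lean of the respiratory chain genes was not tested. Most accessory genes of complex I, all small subunits of complex III and most general subunits of complex IV lay on the shorter side, and Ndufs1, Sdha, Uqcrc2, Atp5a1 and Atp5b on the longer.

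**Figure D4:**
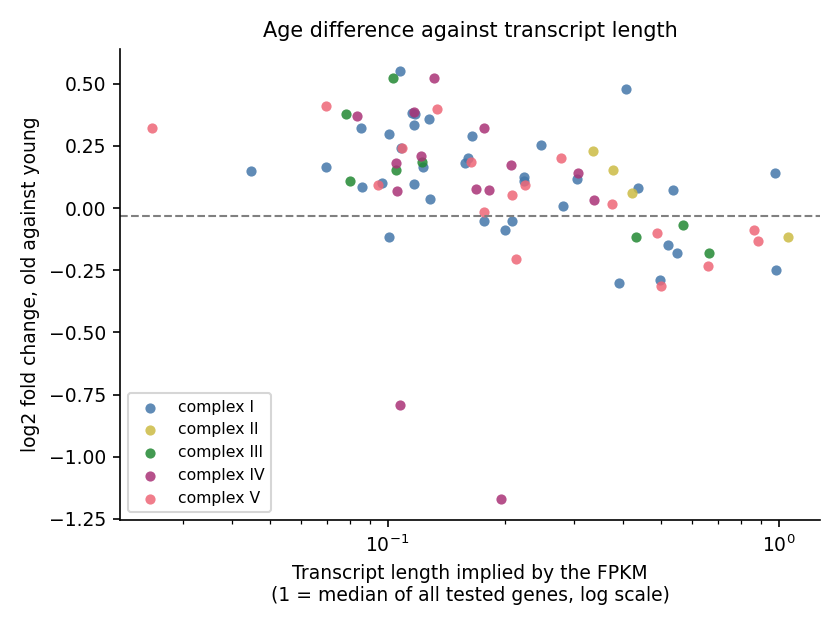
Age difference against transcript length for the 79 genes (x axis, length relative to the median tested gene on a log scale; y axis, log2 fold change of old against young; dashed line, median of all tested genes). Points fall from left to right, and Cox4i2 and Cox6b2, at lengths of 0.20 and 0.11, lie below all others.

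The composition of the chain by transcript varied little. By rescaled FPKM, complex I made up 24.6 and 22.6 in young and 24.7 and 22.9 in old libraries (percent of the 84 genes), complex II 2.98 and 3.40 in young and 2.88 and 3.44 in old libraries and complex III 9.13 and 8.84 in young and 9.34 and 9.16 in old libraries. Complex IV made up 21.4 and 21.8 in young and 23.3 and 23.9 in old libraries (in percent) and complex V 41.9 and 43.4 in young and 39.8 and 40.6 in old libraries, in both cases with no overlap between ages. Without Atp5b, a calculation chosen after seeing the data, complex V made up 33.6 and 32.04 in young and 32.96 and 31.6 in old libraries of the rest and complex IV 24.5 and 26.1 in young and 25.96 and 27.5 in old libraries (in percent), and the ages overlapped in both. By fragments, the ages also overlapped for complex V without Atp5b, while complex IV stayed apart, at 17.5 and 17.9 in young and 19.3 and 19.8 in old libraries (in percent).

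**Figure D5:**
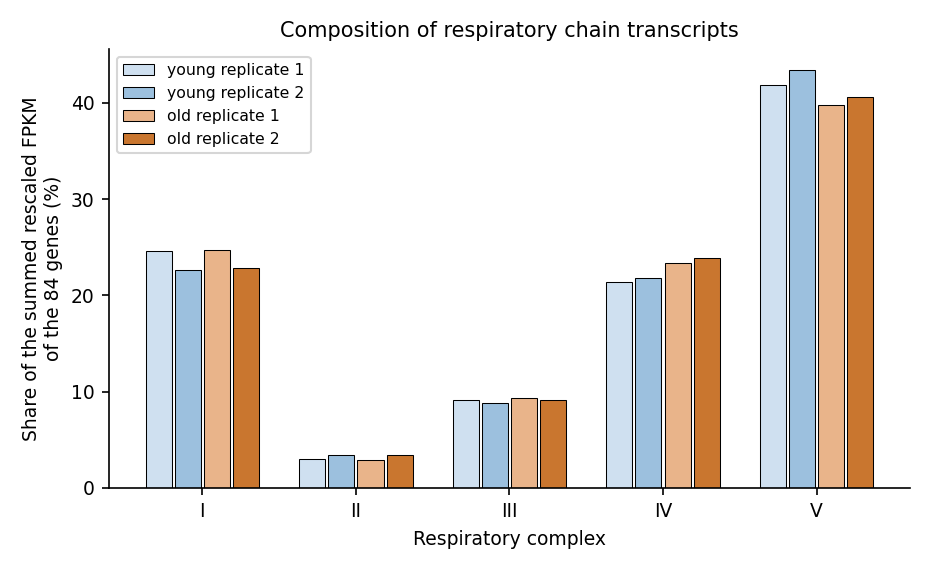
Share of each complex in the summed rescaled FPKM of the 84 genes (y axis, percent; bars, the 4 libraries). Complex V was the largest in every library, at 39.8% to 43.4%, and complex II the smallest.

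Other mitochondrial genes were read from lists. In each, edgeR called 0 genes and DESeq2 called 0. Of the assembly factors tested, 15 of 36 had estimates above 0 (median -0.043). Both old libraries lay above both young ones for 6 of the 36 and below them for 8 (16.7% and 22.2%, against 16.1% and 15.5% of all genes). Sco2, which carries copper to complex IV, was at 4.10 and 4.32 in young and 2.41 and 1.96 in old libraries (-0.92 ± 0.48) and Ndufaf4, which helps assemble complex I, at 46.99 and 47.6 in young and 35.2 and 29.8 in old libraries (-0.54 ± 0.28), both without overlap. The Sco2 values rest on few fragments, 70 and 27 in young and 29 and 9 in old libraries. Of listed subunits and partners whose symbols fall outside the rule, 4 of 6 were above 0. Cycs, cytochrome c, was at 49.1 and 36.8 in young and 55.5 and 70.2 in old libraries (0.54 ± 0.29), and Atpif1, the inhibitor of the ATP synthase, at 67.5 and 53.8 in young and 76.2 and 79.1 in old libraries (0.35 ± 0.26). Cyc1, cytochrome c1 of complex III, was at 128 and 80.7 in young and 115 and 88.5 in old libraries (-0.036 ± 0.33), with the ages overlapping. Among regulators of respiratory genes 3 of 10 were above 0, and Gabpb1, a subunit of the factor GABP, was at 166 and 210.2 in young and 155 and 138 in old libraries (-0.36 ± 0.27). Nrf1 itself was at 42.2 and 38.4 in young and 43.1 and 39.7 in old libraries (0.037 ± 0.27). Ppargc1a and Ppargc1b did not pass the filter. Of the citric acid cycle genes 3 of 13 were above 0 (median -0.16), the side opposite to most chain genes. The cycle genes were longer, with a median relative length of 0.81 against 0.18 for the tested chain genes. The part of length in this contrast was not tested. Suclg2, of succinyl-CoA synthetase, was at 139 and 123 in young and 104 and 71.9 in old libraries (-0.57 ± 0.29), Dld, the shared dehydrogenase subunit of the cycle, at 142 and 169 in young and 109 and 128 in old libraries (-0.39 ± 0.26), while Cs, citrate synthase, was at 250.4 and 242 in young and 271 and 324 in old libraries (0.27 ± 0.26). Of the carriers and pores 1 of 12 was above 0, namely Ucp2, an inner membrane carrier, at 339 and 341 in young and 513 and 704 in old libraries (log2 fold change 0.84 ± 0.29, edgeR unadjusted p = 0.0301, adjusted p = 0.776). Slc25a3, which brings in phosphate for the ATP synthase, was at 608 and 459.5 in young and 551 and 422 in old libraries (-0.13 ± 0.31), and Vdac1, a pore of the outer membrane, at 106 and 123 in young and 104 and 85.6 in old libraries (-0.27 ± 0.26).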

How the data were processed

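Whole transcriptome sequencing covered 4 libraries, 2 per age. Per the submitters' processing notes and the methods, reads were aligned to GRCm38 (mm10) with STAR 2.3.0. The notes also list HTSeq 0.5.4p3, DESeq 1.12.1, Cuffdiff and Cufflinks 2.1.1. The table the authors deposited holds, per gene and library, estimated counts of fragments, a scaled signal (the fragments after a scaling of each library, not used for results) and FPKM, the authors' values per transcript length. The rows give each library by age (the old as 20m, where the labels give 72 weeks) and number, and which sample of an age a number belongs to was not settled by the labels. Use of strand in counting is not given in the sources read here. In GENCODE M21, 29 of the 84 genes overlap exons of another gene. A near-identical copy was one with at least 95% identity over at least 50% of the longest transcript.

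Estimated counts were rounded, a gene was kept if 2 or more libraries had an FPKM of 1 or higher, and ages were compared with edgeR 4.0.16 (R 4.3.3, TMM scaling, quasi-likelihood test, no term but age) with Benjamini-Hochberg adjustment over all genes and a threshold of 0.05. Alternatives were DESeq2 1.42.0, limma 3.58.1 on log2(FPKM + 1) and log2(FPKM + 0.1), other scaling, no filter or a minimum FPKM of 5, a replicate block, and fits without each library in turn. The edgeR steps were tested on simulated data, with the same spread for every gene and no effect shared by replicate number. The planted changes were larger than the estimate of any respiratory chain gene, so that test does not cover changes of the size seen here. Each SE was worked back from edgeR's F statistic, as the size of the log2 fold change over the square root of F. FPKM were rescaled to 1000000 per library to compare genes. Counting limits do not cover PCR duplicates, which are not independent molecules.

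The genes and lists were chosen with earlier results of these data known. Named were the Sdh genes, in the other complexes the 3 genes with the highest level and the 3 with the smallest p, core, F1 and c ring genes, isoforms of complex IV, and from each list genes with the smallest p or the highest level, with examples of these printed. Uqcrb, Ndufs5 and Cox6b1 were named after their values were seen. Values of 1 gene that the rule names are not reported here.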

Additional observations from a re-analysis of the deposited data

How the results depend on the processing

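With 2 libraries an age and standard errors as large as most differences, small changes of single genes were not detectable. In each of 11 alternatives (DESeq2, median-of-ratios scaling, 2 other filters, limma on log2(FPKM + 1) and log2(FPKM + 0.1), the replicate block and leaving out each library) 0 of the respiratory chain genes were called. The 2 limma fits used FPKM that were not rescaled between libraries. The difference in FPKM sums within an age then adds to the spread of each gene, which limits what those 2 fits could call. Leaving out 1 library leaves 1 at that age, whose spread is then taken from the other age. Over those 4 fits the median log2 fold changes of complexes I to V ran from -0.11 to 0.39, -0.099 to 0.31, -0.15 to 0.32, 0.018 to 0.44 and -0.10 to 0.35, and the highest value of each complex came without young replicate 1. The cause was not tested. Counting only true subunits, with Ndufa4 in complex IV, kept the direction of each complex median and moved that of complex V from 0.054 to 0.091.

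The replicate number is shared between ages by name only, as no label ties it to a batch or animal. Deviations from the age means of libraries with the same number correlated across genes at 0.73 for all genes and 0.53 for the respiratory chain genes. The 79 chain genes behind the 0.53 include Ndufs5, listed at 0 in young replicate 2. For the 78 genes with a value at both ages, the young and old log2 differences between replicates had a Pearson r of 0.75. All genes gave 0.72 by that measure. With the replicate block, 0 respiratory chain genes were called (smallest adjusted p 0.0726 by edgeR, with 6 at an unadjusted p below 0.05, against an adjusted p of 0.353 or higher in the other fits), with 578 of all genes called higher in old ETP and 199 lower, against 0 and 0 without it. DESeq2 called 210 and 15, edgeR with no filter on low values 474 and 34, and edgeR without old replicate 1 called 218 and 3. Ucp2 was past the threshold only with the replicate block, where its log2 fold change was 0.82.

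Some genes took the other sign in other fits, not only those with estimates near 0. Atp5e and Rpl38, at 0.41 and 0.40 with all 4 libraries, did so with a library left out. Values on the FPKM scales are given after the shift of all genes was removed. On log2(FPKM + 1), Atp5c1 was at -0.036, Ndufs3 at -0.040, Uqcrb at -0.019 and Cox6b1 at -0.020. Atp5g3 was at 0.0017 with the stricter filter, 0.012 on log2(FPKM + 0.1) and 0.024 with the replicate block, and Ndufs3 was at -0.00092 with no filter. With single libraries left out the log2 fold change ran from Atp5a1 -0.49 to 0.35, Atp5c1 -0.10 to 0.15, Atp5d -0.10 to 0.59, Atp5e -0.052 to 1.11, Atp5g2 -0.19 to 0.47, Atp5g3 -0.43 to 0.57, Cox15 -0.38 to 0.071, Cox6a2 -0.20 to 0.39, Cyc1 -0.33 to 0.33, Flt3 -0.15 to 0.49, Gabpa -0.53 to 0.020, Ndufa4 -0.46 to 0.34, Ndufb11 -0.087 to 0.71, Ndufb9 -0.042 to 0.73, Ndufs3 -0.14 to 0.17, Ndufs5 -0.37 to 8.74, Ndufs7 -0.53 to 0.28, Ndufs8 -0.33 to 0.61, Ndufv1 -0.44 to 0.90, Nkg7 -0.42 to 0.064, Rpl38 -0.025 to 0.83, Rps4x -0.66 to 0.26, Sdha -0.25 to 0.026, Sdhb -0.18 to 0.81, Sdhc -0.038 to 0.38, Sdhd -0.11 to 0.25, Slc25a3 -0.32 to 0.083, Uqcr10 -0.40 to 0.83, Uqcrb -1.004 to 0.99 and Uqcrh -0.043 to 0.46. The upper value of Ndufs5 is fitted against a library at 0 and does not measure a size.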
